A study of Mus musculus with 4 samples.

Results

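Open chromatin was described around 8 genes in the facial surface ectoderm of E11.5 mouse embryos: the class 3 semaphorin genes Sema3a, Sema3b, Sema3c, Sema3d, Sema3e and Sema3f and the neuropilin genes Nrp1 and Nrp2. All 8 were found in the annotation, and each was given the start site of its principal protein-coding transcript (GENCODE, GRCm38). A peak was counted with a gene when its centre lay within 250 kb of that start site. This gave 160 of the 65467 control peaks and 13 of the 3103 AP-2-dependent regions. The genes were chosen by their peaks and regions in these same lists, so the numbers of peaks and regions near them and the values of those peaks are given as a description, without a test.

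Class 3 semaphorins are secreted guidance proteins. Most of them bind a neuropilin on the receiving cell, which joins a plexin that carries the signal inward, and neuropilins also bind forms of VEGF in blood vessels. In the embryonic head these ligands are known for steering cranial nerves, migrating neural crest cells and vessels, and the surface ectoderm lies next to all of these tissues. AP-2α and AP-2β, the products of Tfap2a and Tfap2b, are transcription factors of the early ectoderm that bind a GC-rich palindrome.

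The ectoderm was profiled by ATAC-seq, in which a transposase cuts nucleosome-free DNA, in 4 libraries from pooled facial tissue: 2 of control embryos and 2 of EDKO embryos (Crect; Tfap2a flox/flox; Tfap2b flox/flox). Crect is a Cre transgene active in the early ectoderm. The controls were littermates without Crect that carried 1 floxed copy of each gene (Tfap2a flox/+; Tfap2b flox/+), so both groups carried floxed alleles and only EDKO embryos carried the transgene. Control peaks were called from both control libraries together. AP-2-dependent regions came from a call in which the EDKO libraries, again both together, served as the background for the control libraries, and are therefore places with more signal in control than in EDKO ectoderm. Each peak has 1 value per list, the −log10 p at its summit and the −log10 p summed along its length (area under the curve, AUC), so there was no error between replicates and the depth behind a peak was unknown. The −log10 p was not adjusted for multiple positions, and values were not compared between the lists. Shares are given with 95% intervals (Wilson), which treat peaks as independent and cover counting error only. As a check of the tissue, a control peak lay within 1 kb of the start site for 12 of 12 surface ectoderm markers (Epcam, Cdh1, Trp63 and others), 6 of 7 of mesenchyme and neural crest, 3 of 3 of neurons, 1 of 2 of muscle, 1 of 4 of endothelium (Kdr) and 0 of 3 of blood, against 65.01% of all protein-coding genes. Most markers of mesenchyme, neural crest and neurons were thus open too, so this check does not separate the ectoderm from those tissues. An open start site does not show that a gene was expressed.

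The sequence at the summit is shown for the regions that carried a form of the AP-2 palindrome near their summit, and for the region with the largest AUC, in Sema3d. Each is read 5′ to 3′ on the plus strand of GRCm38 (RefSeq), in a window of up to 100 bases on each side of the summit that stops at the edge of the region. Capitals mark every match, on either strand, to 1 of 3 strings: GCCNNNGGC, GCC and GGC separated by 4 bases, or GCC and GGG separated by 3 bases. The matches may overlap each other.
Nrp2, −113 kb, chr1:62590891-62591091: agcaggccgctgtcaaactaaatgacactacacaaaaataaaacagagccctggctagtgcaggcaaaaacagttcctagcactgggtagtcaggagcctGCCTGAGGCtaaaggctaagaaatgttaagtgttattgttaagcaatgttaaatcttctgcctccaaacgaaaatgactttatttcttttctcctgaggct
Sema3c, −18.0 kb, chr5:17556262-17556462: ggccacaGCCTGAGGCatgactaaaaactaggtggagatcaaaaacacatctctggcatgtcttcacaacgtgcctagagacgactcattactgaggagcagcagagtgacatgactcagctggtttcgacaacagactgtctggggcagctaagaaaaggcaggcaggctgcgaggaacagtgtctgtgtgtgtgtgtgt
Sema3c, 74.4 kb, chr5:17648591-17648791: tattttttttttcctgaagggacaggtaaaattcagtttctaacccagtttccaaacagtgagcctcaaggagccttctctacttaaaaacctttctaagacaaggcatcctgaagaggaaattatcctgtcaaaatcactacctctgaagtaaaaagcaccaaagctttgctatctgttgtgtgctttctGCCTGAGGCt
Sema3e, 64.8 kb, chr5:14089973-14090173: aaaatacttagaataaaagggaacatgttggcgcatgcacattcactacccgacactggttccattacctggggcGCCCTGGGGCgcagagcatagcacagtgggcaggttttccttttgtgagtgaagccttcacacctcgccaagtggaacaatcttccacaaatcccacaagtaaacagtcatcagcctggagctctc
Sema3f, −16.7 kb, chr9:107727076-107727276: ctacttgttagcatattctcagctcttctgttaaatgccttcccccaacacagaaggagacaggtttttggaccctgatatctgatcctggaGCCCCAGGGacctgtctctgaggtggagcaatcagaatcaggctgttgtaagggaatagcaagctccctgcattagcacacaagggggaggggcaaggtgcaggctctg
Nrp1, 57.3 kb, chr8:128416456-128416656: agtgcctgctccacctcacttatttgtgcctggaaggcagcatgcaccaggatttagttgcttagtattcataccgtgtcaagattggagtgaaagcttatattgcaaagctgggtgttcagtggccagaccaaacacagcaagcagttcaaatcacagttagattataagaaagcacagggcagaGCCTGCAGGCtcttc
Sema3d, 92.1 kb, chr5:12475336-12475536: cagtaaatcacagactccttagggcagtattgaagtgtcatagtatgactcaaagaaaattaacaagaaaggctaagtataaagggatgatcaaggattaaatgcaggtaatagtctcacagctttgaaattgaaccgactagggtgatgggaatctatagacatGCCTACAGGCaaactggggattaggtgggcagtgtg
Sema3d, 152 kb, chr5:12535009-12535178: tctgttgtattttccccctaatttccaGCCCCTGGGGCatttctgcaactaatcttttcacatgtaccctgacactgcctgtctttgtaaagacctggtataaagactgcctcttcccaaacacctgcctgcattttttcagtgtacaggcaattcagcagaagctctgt
Nrp2, −54.0 kb, chr1:62649582-62649772: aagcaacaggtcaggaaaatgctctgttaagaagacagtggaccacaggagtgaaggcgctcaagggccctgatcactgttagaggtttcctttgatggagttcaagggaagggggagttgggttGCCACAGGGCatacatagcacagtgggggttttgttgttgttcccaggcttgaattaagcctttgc
Sema3d, 142 kb, chr5:12525361-12525561: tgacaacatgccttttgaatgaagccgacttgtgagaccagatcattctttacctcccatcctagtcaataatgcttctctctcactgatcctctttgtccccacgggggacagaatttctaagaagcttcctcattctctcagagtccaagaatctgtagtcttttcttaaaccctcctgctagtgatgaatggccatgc

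Distances are from the start site to the centre of the region, negative upstream. The first 3 windows hold GCCNNNGGC, in each case as GCCTGAGGC. The Sema3e, Sema3f and Sema3d windows at 64.8, −16.7 and 152 kb hold runs of C followed by runs of G that match the GGG form, the Sema3e window also in the form with 4 bases between the half-sites. The Nrp1 window and the Sema3d window at 92.1 kb match the form with 4 bases between, and the Nrp2 window at −54.0 kb matches both of these forms. The last window, of the Sema3d region with the largest AUC, holds none of the 3 strings.

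AP-2-dependent regions lay in the windows of 7 of the 8 genes, Sema3a being the exception, while 41.4% of all protein-coding genes had at least 1 region within the same distance. The counts of members were fixed by how the genes were chosen. Sema3d had 5 regions, Sema3c 3, Nrp2 2, and Sema3b, Sema3e, Sema3f and Nrp1 1 each. Sema3b and Sema3f, neighbours on chromosome 9, shared the same region. Of all protein-coding genes, 15.9% had at least 2 regions, 6.14% at least 3 and 1.38% at least 5. The numbers of control peaks lay within the quartiles of all genes for 5 members and below them for Nrp1. Sema3a and Sema3c had 18, Nrp2 19, Sema3d 20, Sema3e 10 and Nrp1 7, around a median of 19 over all genes (quartiles 10 and 30). Sema3b with 59 and Sema3f with 62 exceeded 98.0% and 98.6% of genes, and their windows hold 17 and 22 other protein-coding start sites. The windows of these neighbours overlap, with start sites 104 kb apart, and share 53 control peaks.

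**Figure D1:**
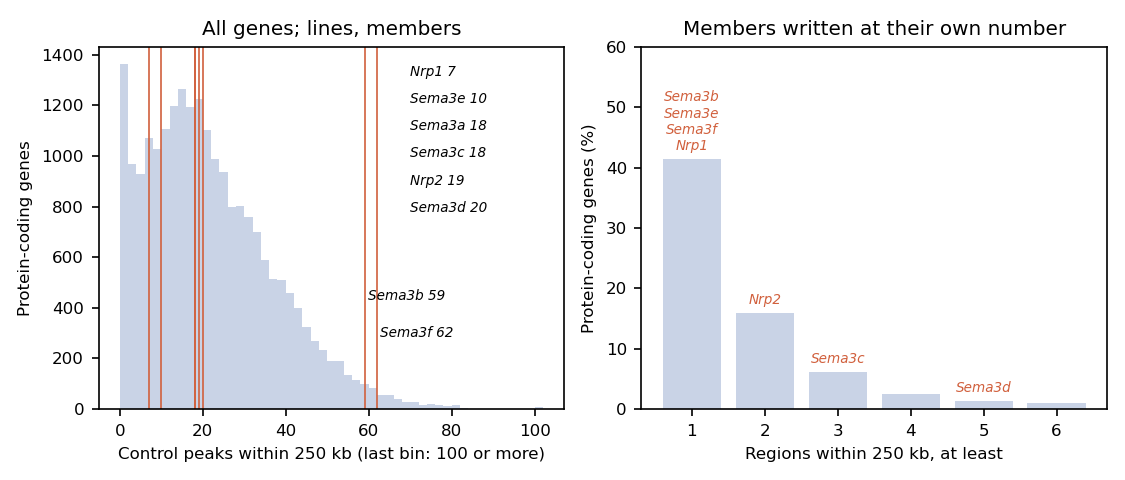
Left, number of control peaks within 250 kb of the start site (horizontal) over 21853 protein-coding genes (vertical, number of genes), with a line and a label for each member; right, share of genes (%) with at least the number of AP-2-dependent regions on the horizontal axis, with each member that has a region written above its own number. Sema3b (59 peaks) and Sema3f (62) lie in the right tail for control peaks, and Sema3d (5 regions) stands over a bar of 1.38% of genes.

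Of the 160 control peaks near the members, 12 overlapped an AP-2-dependent region by at least 1 bp, or 7.50% (4.34 to 12.7), beside 4.48% of all control peaks. Near Sema3b and Sema3f 1 of 68 control peaks overlapped a region (1.47%, 0.260 to 7.87), and near the other 6 members 11 of 92 did (11.96%, 6.81 to 20.2). This split was made after the data were seen, so it is a description only. The peaks that overlapped a region were all distal. Where no start site lay within 5 kb of the control peak, 12 of 106 near the members overlapped a region (11.3%, 6.60 to 18.8), while 5.74% of all such peaks did. None of the 26 member peaks within 1 kb of a start site and none of the 28 between 1 and 5 kb overlapped one, where the shares of all control peaks were 0.995% and 2.57% and the upper bounds for the members 12.9% and 12.1%. By gene, the share was highest at Sema3d, with 5 of 20 peaks (25%, 11.2 to 46.9), and lowest at Sema3a, with 0 of 18 (upper bound 17.6%).

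**Figure D2:**
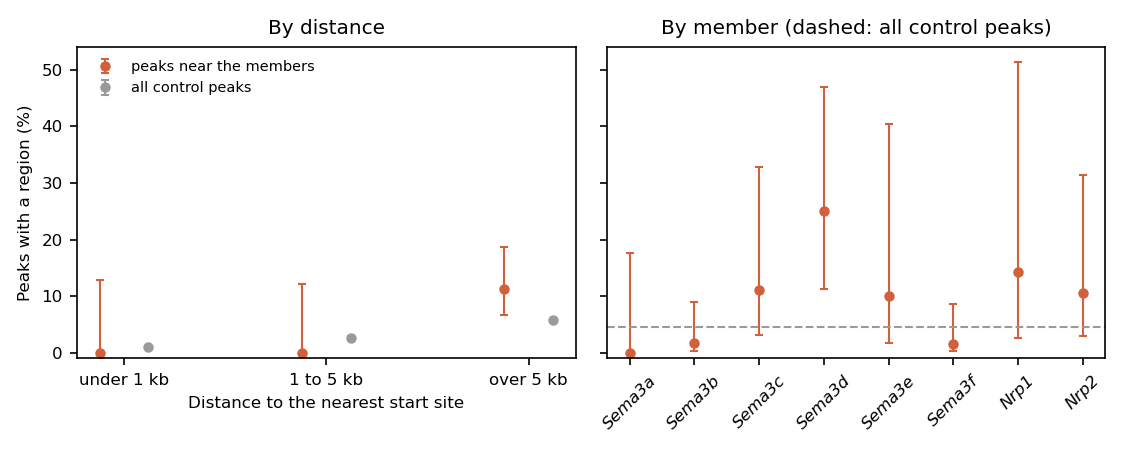
Share of control peaks (%, vertical) that overlap an AP-2-dependent region, with 95% Wilson intervals (bars, counting error only); left, by distance to the nearest start site for the 160 peaks near the members and for all control peaks on chromosomes; right, for each member, with the share of all control peaks dashed. Overlaps near the members occur only beyond 5 kb (11.3%), and Sema3d has the highest share (25%) with an interval from 11.2 to 46.9%.

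The start sites of all 8 genes lay inside a control peak, beside 61.1% of all protein-coding genes, and none of these 8 promoter peaks overlapped an AP-2-dependent region. Among the ligands, the promoter peak of Sema3c was the strongest peak of its window, with a summit −log10 p of 12.04, above 95.9% of all control peaks, over 1931 bp. Sema3c protein attracts or repels depending on the cell and is needed for outflow tract development. The promoter peak of Sema3f, a ligand that signals mainly through neuropilin 2, was 4550 bp wide with an AUC of 15617, above 99.7% of control peaks. Sema3d had 8.85 at its promoter summit, Sema3e, which can signal through plexin D1 without a neuropilin, had 8.03, and Sema3a, the ligand of neuropilin 1, had 6.90. Sema3b had the weakest, with 3.52, above 6.87% of control peaks and ranked 56 of the 59 peaks in its window. This gene has 5 principal start sites, and this order depends on the one used here. Another of them lies in a control peak with a summit −log10 p of 5.67 (above 59.1% of control peaks, AUC 2805), which would place Sema3b above Nrp1, and the other 3 lie in a peak of 2.97. Of the receptors, Nrp2 had a promoter peak of 10.6, above 91.5% of control peaks, and Nrp1 one of 5.05, above 49.1%, although 2556 bp wide. A RefSeq promoter sequence (250 bases before to 50 after the start, GRCm38.p6) was matched for 6 of the 8 members, all but Sema3b and Sema3f. GCCNNNGGC was present in 1 of these, that of Sema3c, and in 16.6% of all 32851 promoters in the table. The Sema3c promoter is shown because it lies wholly within the strongest promoter peak of the 8 by summit value; its RefSeq start is 535 bp downstream of the GENCODE one, and capitals mark the match.
Sema3c promoter, chr5:17574566-17574865, plus strand: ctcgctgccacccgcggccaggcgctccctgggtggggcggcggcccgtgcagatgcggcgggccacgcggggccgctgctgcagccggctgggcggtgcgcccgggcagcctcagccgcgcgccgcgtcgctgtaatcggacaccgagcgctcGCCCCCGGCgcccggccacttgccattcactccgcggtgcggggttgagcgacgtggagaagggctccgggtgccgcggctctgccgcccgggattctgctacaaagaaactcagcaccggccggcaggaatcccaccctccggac

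**Figure D3:**
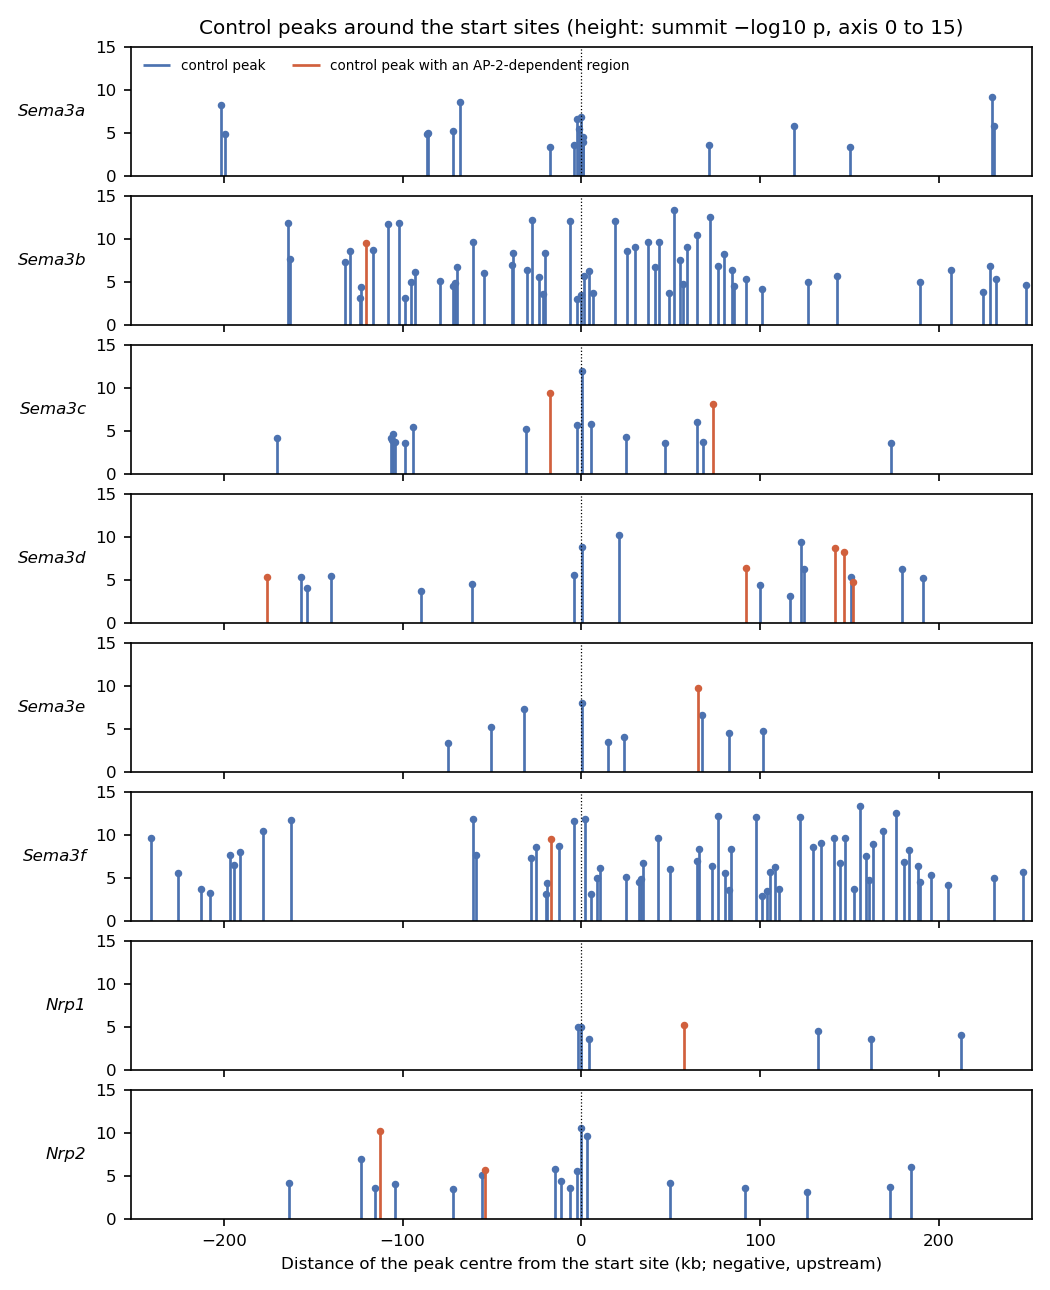
Control peaks within 250 kb of each start site, by distance of the peak centre (horizontal, kb, transcription to the right) and summit −log10 p (vertical, 0 to 15 in each panel), with peaks that overlap an AP-2-dependent region in orange. The peaks at the start sites are blue in all 8 panels, the orange peaks lie between −176 and 152 kb, and the same orange peak appears for Sema3b and Sema3f.

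The 13 regions were compared with the control peaks that held them. Each lay wholly inside a control peak, of which it filled 23.7 to 93.0% (median 51.7%), and in 8 of 13 the summit lay within 50 bp of the summit of the host peak. The nearest protein-coding start site was that of a member for 13 of 13, whereas this was so for 98 of the 160 control peaks. Control peaks nearer to a gene other than a member lay mostly around the chromosome 9 pair. The nearest start site was Sema3b for 6 of its 59 peaks and Sema3f for 11 of its 62. It was the gene itself for 16 of 18 at Sema3a, 10 of 18 at Sema3c, 20 of 20 at Sema3d and 10 of 10 at Sema3e. At Nrp1 this held for 6 of 7 and at Nrp2 for 19 of 19. By position, 8 regions lay in an intron of the member itself, 1 in an intron of another gene and 4 between genes. No shares over all regions are given for these placements, for the fit inside control peaks or for the summit distances, so they describe the 13 only. The 12 host peaks were among the stronger ones. Their median summit −log10 p was 8.16, and 11 of 12 exceeded the median of all control peaks (5.10), which 93 of all 160 member peaks did. The 2932 control peaks with a region in the whole list were also stronger than control peaks as a whole, with a median of 6.92. Within the list of AP-2-dependent regions the 13 were ordinary in strength, with a median AUC of 368 against 395 over the whole list and a median summit −log10 p of 4.39 against 4.40. All 13 lay in single-copy sequence, as did 154 of the 160 control peaks. Copies were not counted over the whole lists, so these counts describe the members only. The authors' mapping allowed several positions per read pair, so peaks in repeated sequence may share reads with their copies.

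**Figure D4:**
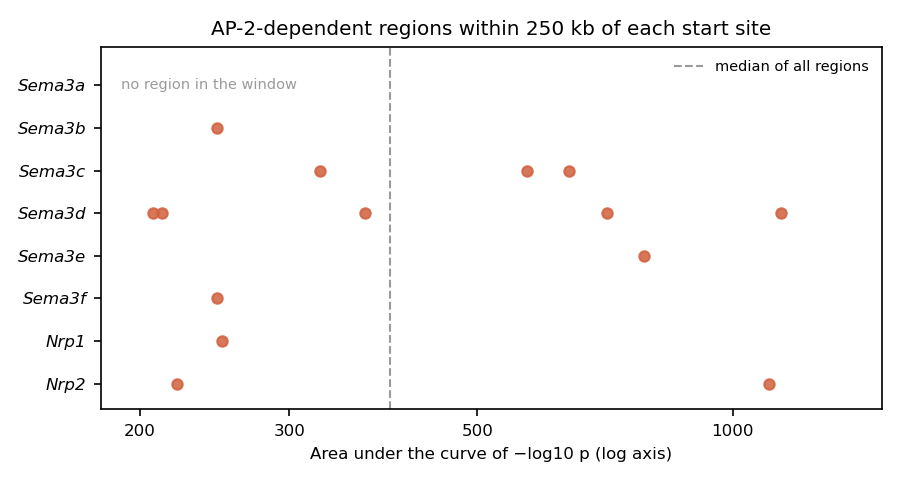
AUC (−log10 p summed over the region, horizontal, log axis) of each AP-2-dependent region within 250 kb of the start site of each member (vertical), with the median of all 3103 regions dashed. The values run from 207 to 1141, both at Sema3d, and 6 of the 13 regions lie above the median of 395; the region shared by Sema3b and Sema3f is drawn for both.

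Sema3d had the most regions. The protein guides axons and endothelial cells in the embryo. Its gene spans 206 kb on chromosome 5 (chr5:12383385-12588948, plus strand), with no other protein-coding start site within 250 kb. A single region lay upstream, at −176 kb (chr5:12207573-12207802, AUC 207, −log10 p 3.62), and 1 in intron 3 at 92.1 kb (chr5:12475262-12475647, AUC 368, −log10 p 4.39). The other 3 lay together in intron 8, spread over 10129 bp. These were chr5:12525050-12525756 at 142 kb (AUC 1141, −log10 p 5.94), chr5:12529673-12530314 at 147 kb (AUC 710, −log10 p 5.12) and chr5:12534952-12535178 at 152 kb (AUC 212, −log10 p 3.74). Intron 8 holds 4 control peaks, so 3 of 4 overlapped a region, and 4 of 13 did over the gene as a whole. The first of the trio filled 93.0% of its control peak, the largest share among the 13. The strongest control peaks of the locus were elsewhere. These were a peak in intron 1 at 21.04 kb (−log10 p 10.3) and one in intron 6 at 123 kb (−log10 p 9.43), and neither overlapped a region, nor did the promoter peak. More regions lay outside the window, at 268, 282 and 313 kb downstream, with Sema3d as the nearest protein-coding start site.

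Sema3c, on the same chromosome (chr5:17574281-17730268, plus strand, 156 kb), had 3 regions in 2 control peaks. One lay between genes at −18.0 kb (chr5:17556145-17556478, AUC 572, −log10 p 5.79), in a control peak of −log10 p 9.44 that was surpassed in the window only by the promoter peak. The other 2 lay in intron 2, at 72.9 kb (chr5:17646789-17647569, AUC 326, −log10 p 3.46) and 74.4 kb (chr5:17648404-17648984, AUC 642, −log10 p 4.57), separated by 834 bp within a single control peak of 2423 bp. Thus the 3 strongest control peaks of the Sema3c window by summit were the promoter, without a region, and these 2, each with one. A group of 6 control peaks between −106 and −94.2 kb held no region, and 5 of them lie in sequence present in 4 to 14 copies in the genome.

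At Sema3e (chr5:14025276-14256689, plus strand, 231 kb) the only region lay in intron 1, at 64.8 kb (chr5:14089826-14090232, AUC 786, −log10 p 6.58, above 85.2% of regions). Its control peak was the strongest of the 10 in the window (−log10 p 9.83), ahead of the promoter peak (8.03) and of a peak without a region at −32.1 kb (7.37). At Sema3f (chr9:107681500-107710475, minus strand, 29.0 kb) the region lay between genes at −16.7 kb (chr9:107727020-107727301, AUC 247, −log10 p 4.30). It lay at −121 kb from Sema3b (chr9:107597674-107609229, minus strand), and Sema3f was the nearest gene. It filled 23.7% of a control peak with −log10 p 9.57, the smallest share among the 13. Sema3b, whose product is a semaphorin often lost in tumours, had none of the 13 as its nearest gene. The control peaks with the largest AUC nearest to Sema3b lay at −6.08 kb (AUC 4869, −log10 p 12.1), 1.58 kb (AUC 2805, −log10 p 5.67) and 4.32 kb (AUC 1174, −log10 p 6.32). Those nearest to Sema3f, beside its promoter peak, lay at −25.4 kb (AUC 5345, −log10 p 8.62) and −4.26 kb (AUC 4170, −log10 p 11.7). None of these 5 peaks overlapped a region.

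Sema3a (chr5:13125414-13602565, plus strand, 477 kb) had no region in its window despite 18 control peaks, 16 of them inside the annotated gene. The strongest in the window were at 230 kb (−log10 p 9.23), −67.8 kb (8.57) and −201 kb (8.20). The first of these lies between genes, with Speer3 as the nearest protein-coding start site. A region did occur just outside the window, at −274 kb (chr5:13125452-13125692, AUC 752, −log10 p 7.40, above 88.4% of regions). It begins 38 bp from the first base of the annotated gene and falls in exon 1 of a non-coding Sema3a transcript, within a control peak of −log10 p 9.84. The principal start site of Sema3a is thus far from the 5′ end of the annotated gene. The other regions just outside the limit were at 268 and −271 kb from Sema3d, and the outermost one inside it was at −176 kb from Sema3d. For control peaks the limit fell between 249 and 250.5 kb from Sema3b.

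The neuropilin genes carried 3 regions between them. At Nrp2 (chr1:62703285-62818695, plus strand, 115 kb) both lay upstream. The one at −113 kb (chr1:62590733-62591295) had the highest summit value of the 13, with −log10 p 8.30, above 90.8% of regions, and an AUC of 1105. It lies in intron 22 of Pard3b, a polarity gene, inside a 2164-bp control peak of −log10 p 10.2 that was second in the window to the promoter peak of 10.6. The window holds 6 control peaks in Pard3b introns, and this was the only one with a region. The other, at −54.0 kb (chr1:62649582-62649881), was weak, with AUC 221 and −log10 p 3.23. The control peak with the largest AUC near Nrp2, in intron 1 at 3.14 kb (AUC 7220, −log10 p 9.61), held no region. At Nrp1 (chr8:128358604-128503363, plus strand, 145 kb) the single region lay in intron 2 at 57.3 kb (chr8:128416372-128416727, AUC 250, −log10 p 3.35, above 3.13% of regions). It filled 83.6% of a control peak of −log10 p 5.22, the strongest of the 7 in a sparse window where the promoter peak had 5.05 and a peak at −1.96 kb had 5.03.

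The AP-2 consensus was then counted over whole intervals, on both strands. GCCNNNGGC was present in 3 of the 13 regions (23.1%, 8.18 to 50.3), beside 29.7% of all regions on chromosomes, and in 35.0% of the 160 control peaks, beside 32.4% of all. The interval of the members includes the share of all regions. Regions are narrower than control peaks (median 360 and 560 bp over the whole lists), so whole-interval shares are not comparable between the lists. The 3 matches were GCCTGAGGC, at 4 bp from the summit in the Nrp2 region at −113 kb and at 89 and 95 bp in the Sema3c regions at −18.0 and 74.4 kb. GCCTGAGGC or its reverse complement was present in 197 of 3072 regions overall (6.41%). This string was picked after the 3 matches were seen. The form with 4 bases between GCC and GGC was present in 7 of 13 regions (53.8%, 29.1 to 76.8), with 23.5% over all regions, and the form with GGG in 7 of 13, with 47.6% over all. Within 100 bp of the summit the form with 4 bases between was present in 4 of 13 regions (30.8%, 12.7 to 57.6), with 17.6% over all regions, so that this interval includes the share of all. The form with GGG was then present in 4 of 13 (all regions 36.5%) and GCCNNNGGC in 3 of 13 (all regions 22.7%). In the same distance from the summit, GCCNNNGGC was present in 16.25% of the 160 control peaks and in 14.4% of all control peaks. At least 1 of the 3 strings was present in 12 of 13 (92.3%, 66.7 to 98.6), with 68.2% over all regions and 60.1% over all control peaks. The exception was the upstream Sema3d region at −176 kb. For any of the 3 strings, too, the interval of the members includes the share of all regions. The combination of 3 strings was examined after the counts of each were known.

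**Figure D5:**
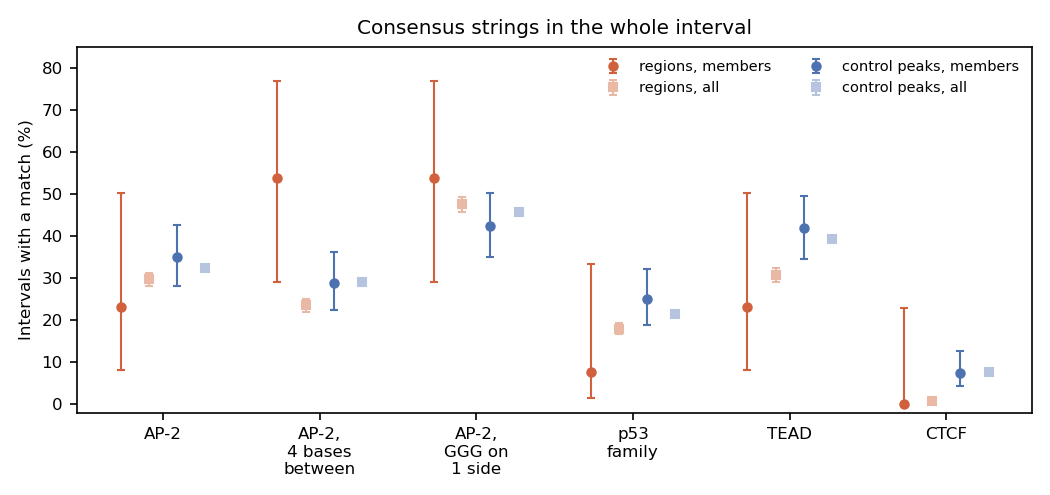
Share of intervals (%, vertical) with at least 1 match to each consensus string (horizontal), for the 13 regions and 160 control peaks near the members and for all regions and control peaks on chromosomes, with 95% Wilson intervals (bars, counting error only). For the string with 4 bases between GCC and GGC, the members' regions lie at 53.8% with an interval from 29.1 to 76.8%, beside 23.5% of all regions, and within 100 bp of the summit (not drawn) at 30.8% beside 17.6%. For GCCNNNGGC the members' interval includes the share of all regions.

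Strings of other factors were counted in the same way. The TEAD string GGAATG was present in 3 of 13 (all regions 30.8%), and these were the 3 regions of Sema3c. Within 100 bp of the summit it was present in 1 of 13 (all regions 19.2%). A p53 family string was present in 1 of 13, the Sema3e region (all regions 17.9%), and the CTCF string in 0 of 13 (upper bound 22.8%, all regions 0.651%). In the control peaks near the members the CTCF string was present in 12, none of which overlapped a region, while 63 of the 4969 control peaks with it (1.27%) did so in the whole list. The regions had a median GC content of 43.0% (37.8 to 52.1%), lower than the 48.0% of all regions, and 11 of 13 fell below that median. The control peaks near the members had a median of 49.5%, beside 51.8% for all.

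Other genes of semaphorin signalling were listed by role, and all 42 were found. A start site inside a control peak was present for 37 of 42 (all genes 61.1%), and 17 had at least 1 AP-2-dependent region within 250 kb (all genes 41.4%). Of their 971 control peaks, 28 overlapped a region (2.88%, 2.0 to 4.14), a share below that of all control peaks. Sema3g, the remaining class 3 ligand, had 23 control peaks and no region. Of 13 semaphorins of other classes, which are mostly membrane-bound, 8 had a region: Sema4a had 3, Sema4c and Sema4d 2 each, and Sema4b, Sema4g, Sema5a, Sema5b and Sema6a 1 each. The strongest was at −17.5 kb from Sema4a (AUC 1201, −log10 p 7.62). Of 9 plexins, the signalling receptors, 2 had one. Plxnc1 had 3, including a pair at −154 and −163 kb, and Plxna2 had 1 at 42.4 kb. Plxna1, Plxna3, Plxna4 and Plxnd1, which like Plxna2 are receptors that class 3 ligands use, had none. Chl1, 1 of 3 adhesion co-receptors, had a region at 138 kb with an AUC of 19917, above the largest of the 13 members' regions (1141). The summit −log10 p of this region was 138.4, beside a median of 4.40 over all regions. Whether it lies in single-copy sequence was not checked. Among 7 VEGF ligands and receptors, Vegfa had 3, Vegfb 2 and Kdr 1. Of 9 intracellular effectors Rnd1 and Fes had 3 each and Mical2 had 1. Many of these regions were nearer to the start site of a gene outside the list. This was so for all 3 of Rnd1 (nearest gene Wnt10b) and all 3 of Fes (Unc45a, Furin and Blm), both of Vegfb (Trmt112 and Otub1), 2 of the 3 of Vegfa (Lrrc73 and Tjap1) and 2 of the 3 of Sema4a (Lmna). It was also so for both of Sema4d (Gadd45g), 1 of the 2 of Sema4c (Fam178b) and the single regions of Sema4b (Unc45a, shared with Fes), Sema4g (Tlx1) and Sema5b (Sec22a).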

How the data were processed

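ATAC-seq of E11.5 facial surface ectoderm was analysed from the 2 deposited peak lists. The authors trimmed adapters with NGmerge, used Bowtie2 for mapping to mm10, keeping up to 10 alignments per read pair, and took peaks from Genrich run in ATAC-seq mode without duplicates or mitochondrial reads. Both control libraries gave the control peaks, and the same libraries against both EDKO libraries gave the AP-2-dependent regions. The values deposited by the authors were a score (1000 times the AUC divided by the width, capped at 1000), the AUC, also a score, the −log10 p at the summit, and the summit offset. The column for q-values holds none. The paper gives an approximate number of reads per sample, but the lists hold no counts, so the depth behind each peak is unknown.

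Peak centres were measured from the start sites of 21853 protein-coding genes (GENCODE release 21 of the mouse series, APPRIS principal transcript). Chromosome lengths of the GRCm38 reference were checked against the peaks. Strings were matched on both strands. Single-copy peaks are those whose 31-base words occur in the genome fewer than 2 times (median). Percentiles are within each list. No p-value was computed, because libraries were combined in each call and peaks are not replicates. The overlap, string and interval routines were tested on simulated data. Python 3.11.15, numpy 2.4.6, pandas 2.3.3, scipy 1.17.1 and bedtools 2.31.1 were used.

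The members, the pathway genes and the markers were chosen with earlier results of these data known. The genes and peaks named are all members with their promoter peaks, every region in their windows and those just outside it, the 3 control peaks of largest AUC nearest each member, and the pathway genes with a region; other peaks, and genes without a region, were named after their values were seen. RNA expression, coverage and regions gained in EDKO embryos were not analysed here.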

Additional observations from a re-analysis of the deposited data

How the results depend on the processing

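For 4 results 28 alternative values were computed, 26 planned and 2 added after seeing the data, and 20 stayed within 1.5 times the reported count or within the interval of the reported share. The number of control peaks near the members (160) became 104 with a window of 100 kb, 242 with 500 kb and 98 when a member had to be the nearest start site. The number of AP-2-dependent regions (13) became 8 with 100 kb and 6 with an AUC of at least 500. The share of control peaks with a region (7.50%) lay between 4.38% (overlap of at least 50% of both intervals, where all control peaks gave 2.87%) and 12.2% (nearest start site that of a member). The latter setting kept all 12 peaks with a region and removed only peaks without one, so the share rose by construction. At an AUC of at least 500 the share of control peaks with a region was 5.56%, beside 2.46% of all control peaks. The share of regions with the AP-2 consensus (23.1%) became 53.8% with 4 bases between GCC and GGC, 53.8% with GGG as the second half-site and 92.3% with any of the 3 strings. For GCCNNNGGC itself it was 50% (3 of 6 regions) at an AUC of at least 500 and 15.8% (3 of 19) with a window of 500 kb. The strings differ by construction, and the interval of the members' 13 regions is wide under each. No paired analysis was possible because each call merged its libraries and the peaks carry no value per library. For the same reason no library could be left out. The depth behind each peak and the spread between replicates could not be assessed.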
